A study of Mus musculus with 15 samples.

Results

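Wounded skin of C57BL/6 mice sampled at day 7 was set against wounded skin sampled at day 1, the latest and the earliest times after day 0 in a course that also took skin at day 3 and day 5. The comparison rests on 6 libraries, 3 of day 7 and 3 of day 1, of 15 in all, chosen by the time given in their labels. Both groups share the strain, the tissue and the wound. No mutation, drug or other treatment is named in the labels, which do not give the size of the wound or the age of the mice. The tissue was freed of muscle and fat before freezing, RNA was extracted, and mRNA libraries were sequenced. The labels do not tie the libraries to individual mice. If replicates of a time share a mouse or an extract, the p-values below rest on technical spread alone.

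A skin wound first bleeds and clots, and damaged cells and platelets release signals that call neutrophils and then monocytes into the tissue. As these cells leave, keratinocytes close the surface while fibroblasts fill the gap with a new matrix of collagens and associated glycoproteins, which enzymes later remodel. Day 7 lies within the phase of new tissue formation and day 1 within the inflammatory phase, and the comparison asks how gene expression differs between them. In RNA from whole skin, fewer cells of a type and less of a transcript per cell cannot be told apart.

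The day 7 libraries held 47000483, 38062562 and 54719929 estimated counts, and the day 1 libraries 55982247, 59637266 and 55019712. Levels are given as CPM, counts per 1000000 on TMM-scaled library sizes. Day 7 replicate 3 stood apart. Hair keratins and keratin-associated proteins took 0.0779%, 0.0646% and 4.52% of the counts in day 7 replicates 1, 2 and 3, and 0.00418%, 0.100% and 0.224% in the day 1 libraries. Of the other libraries that enter the fit, day 5 replicate 2 had a share of 3.54%. Day 7 replicate 3 exceeded both other day 7 libraries at least 4-fold in 286 genes, of which 72 were hair genes, and lay at least 4-fold below both in 25. Log2 CPM correlated at 0.991 between day 7 replicates 1 and 2 and at 0.941 between each of them and replicate 3, over genes, and at 0.978 to 0.989 between day 1 libraries. The hair share also differed within day 1, and values without single libraries are given beside many of the results.

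**Figure D1:**
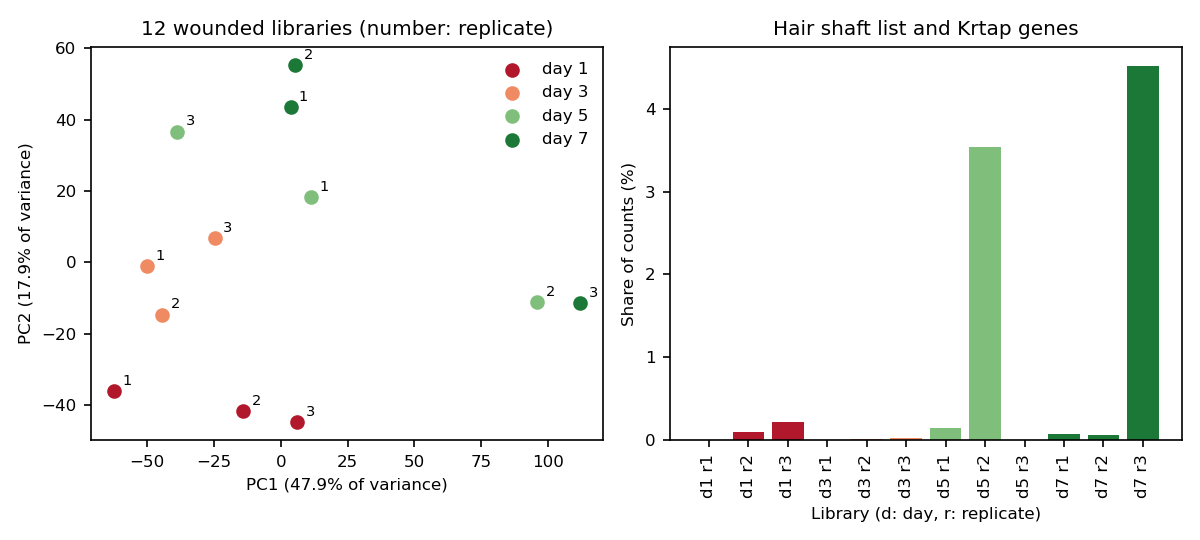
Hair keratin and keratin-associated protein share of the counts, and position on the first 2 principal components, for the libraries of the fit. Day 7 replicate 3 (4.52%) and day 5 replicate 2 (3.54%) lie far from the rest along the first component, while the second separates day 7 replicates 1 and 2 from the day 1 libraries.

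Inflammatory signals, neutrophil genes and interferon-stimulated genes were lower at day 7 than at day 1. Among collagen, matricellular and imprinted growth genes more were higher than lower, while matrix proteases and their inhibitors differed in both directions. Of 16983 genes tested, 2199 differed by edgeR's quasi-likelihood test at an adjusted p under 0.05, which is 12.9% of them. Of these, 932 were higher at day 7 (5.49% of the genes tested) and 1267 lower (7.46%), while upper-quartile scaling in place of TMM gave 1137 higher and 1134 lower. By size the comparison was uneven, with 300 genes at least 2-fold higher against 611 at least 2-fold lower, and 20 at least 8-fold higher against 92 at least 8-fold lower. The median log2 difference over all genes was 0.06. Each library bore on the number of calls, which fell to 967 with day 1 replicate 1 left out, 1139 with day 1 replicate 2 left out and 1068 with day 7 replicate 2 left out. Without day 7 replicate 3 the test called 2275 genes.

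**Figure D2:**
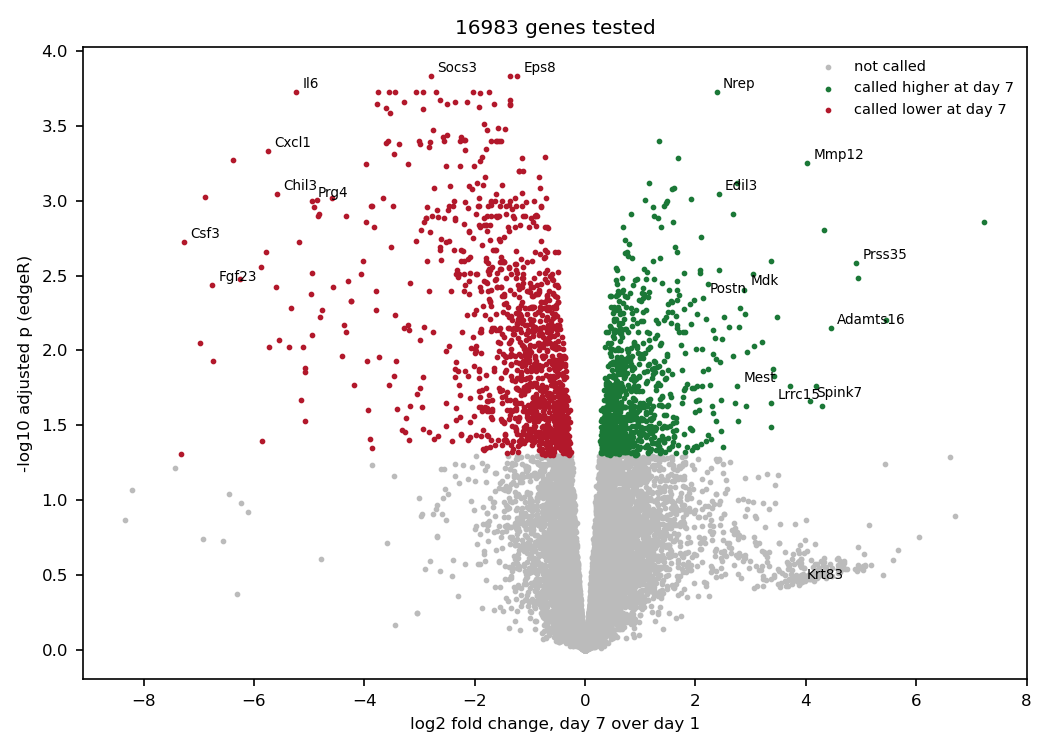
Log2 difference of day 7 minus day 1 on the x axis against the edgeR adjusted p on a negative log10 scale on the y axis, 1 point per gene, with genes called higher or lower at day 7 in colour. Far more coloured points lie beyond a 2-fold change on the lower side (611) than on the higher side (300), and a grey cloud at the right, without calls, holds hair keratins.

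**Figure D3:**
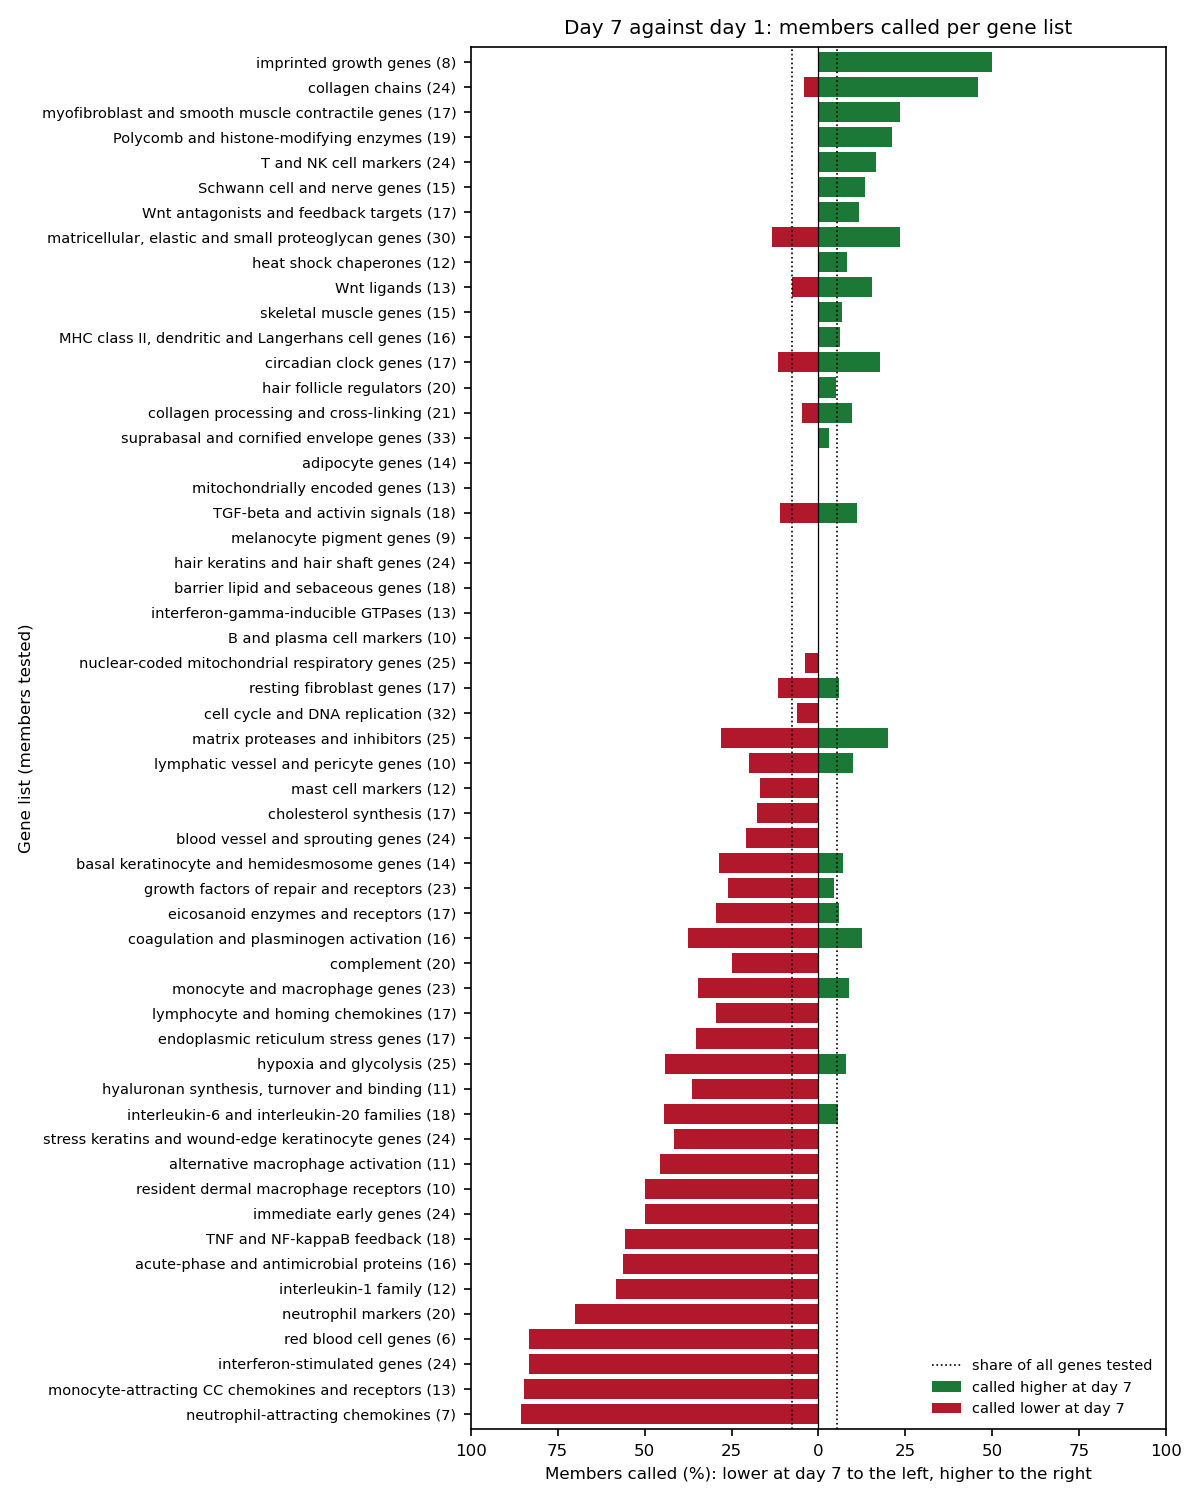
Percent of the tested members of each gene list called higher (right) and lower (left) at day 7, with dotted lines at the 5.49% and 7.46% of all genes. Imprinted growth genes (4 of 8 higher) and collagen chains (11 of 24 higher) stand at the top, and interferon-stimulated genes (20 of 24 lower), monocyte chemokines and receptors (11 of 13 lower) and neutrophil chemokines (6 of 7 lower) at the bottom.

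Chemokines that attract neutrophils fell furthest as a group. Of 7 measured, 6 were lower at day 7 and none higher, with a median log2 difference of -3.36. Cxcl1, a ligand of the neutrophil receptor Cxcr2, stood at 0.547, 0.429 and 1.56 CPM in the day 7 libraries, against 74.5, 38.4 and 26.2 CPM in the day 1 libraries. Each day 7 library lay far below each day 1 library, and Cxcl1 fell by 5.75 ± 0.60 (SE) on the log2 scale (edgeR adjusted p = 0.000467), with a difference of -6.56 without day 7 replicate 3. For Cxcl5, a second ligand of that receptor, the levels were 0.589, 1.58 and 11.05 CPM at day 7 and 207, 120.05 and 131 CPM at day 1. Day 7 replicate 3 was the highest of its group here, and Cxcl5 fell by 5.11 ± 0.97 on the log2 scale with it, with a difference of -7.17 without it. Cxcl3, from the same gene cluster, measured 2.63, 2.79 and 4.32 CPM at day 7 and 43.99, 18.8 and 27.5 CPM at day 1, and fell 9.25-fold (edgeR adjusted p = 0.00677). Cxcl2 had 1.79, 2.93 and 6.81 CPM at day 7 and 225, 80.9 and 83.4 CPM at day 1, without overlap, and fell by 5.07 ± 1.25 on the log2 scale (edgeR adjusted p = 0.0297). Its call was lost without any 1 library but day 1 replicate 3 (adjusted p = 0.0514 to 0.101), and its difference was -4.43 without day 1 replicate 1 and -5.80 without day 7 replicate 3. The platelet chemokines Ppbp and Pf4 fell 10.3-fold and 2.57-fold.

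Cxcl1, Cxcl2 and Cxcl3 lie in one cluster on chromosome 5, and their promoters are shown because all 3 genes fell and all 3 carry the same short motif. The bases are the 150 before the start of each gene in RefSeq (GRCm38.p6), 5′ to 3′ on the gene's strand. Capitals mark matches on either strand to GGG and TTTCC with any 2 bases between them, a simple form of the sequence bound by NF-kappaB, the transcription factor through which many inflammatory signals act.
Cxcl1 (chr5:90891095-90891244, plus strand): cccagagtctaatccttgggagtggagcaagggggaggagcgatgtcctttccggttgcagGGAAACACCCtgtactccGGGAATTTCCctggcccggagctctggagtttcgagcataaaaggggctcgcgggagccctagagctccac
Cxcl2 (chr5:90903749-90903898, plus strand): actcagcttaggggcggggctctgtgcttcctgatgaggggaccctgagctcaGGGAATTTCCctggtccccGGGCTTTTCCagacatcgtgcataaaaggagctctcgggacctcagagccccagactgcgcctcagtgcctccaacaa
Cxcl3 (chr5:90785951-90786100, plus strand): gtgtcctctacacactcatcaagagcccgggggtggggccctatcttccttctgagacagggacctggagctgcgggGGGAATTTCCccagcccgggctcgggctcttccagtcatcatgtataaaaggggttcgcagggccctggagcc
In windows from 250 bases before to 50 after the start, the motif was found in 3 of the 6 neutrophil chemokine promoters matched, against 438 of all 27025 promoters (1.62%). It was found in 23 of 962 promoters of genes called lower (2.39%) and in 13 of 686 of genes called higher (1.9%). Among monocyte chemokines and receptors 1 of 7 promoters held it, and among NF-kappaB feedback genes 4 of 14. The first match begins 89 bases before the start of Cxcl1, 97 before that of Cxcl2 and 73 before that of Cxcl3, and the matches in a promoter do not overlap. These matches describe the letters only.

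Chemokines and receptors of monocytes moved the same way, with 11 of 13 lower at day 7, none higher and a median of -2.18. Ccl2, the main ligand of the monocyte receptor Ccr2, was at 8.396, 7.49 and 14.3 CPM at day 7 and 165, 145 and 101 CPM at day 1. The groups lay well apart, and Ccl2 fell by 3.77 ± 0.33 on the log2 scale (edgeR adjusted p = 0.000227). Ccl7, another ligand of Ccr2, had 17.5, 10.8 and 28.4 CPM at day 7 and 294, 244 and 152 CPM at day 1, a 12.1-fold fall. Among the receptors, Ccr1 fell 9.66-fold and Ccr2 itself 2.86-fold. Ccl3 fell by 2.96 ± 0.72 on the log2 scale with an edgeR adjusted p of 0.0239, and its call was lost without day 7 replicates 1, 2 or 3 or day 1 replicate 1 (adjusted p = 0.0568 to 0.0898), with a difference of -2.26 without day 1 replicate 1. The chemokines of lymphocytes and homing were mixed: 5 of 17 were lower, none was higher (1 without day 7 replicate 3) and the median was 0.29. Cxcl10, an interferon-induced ligand of the T cell receptor Cxcr3, fell 6.98-fold, and Cxcl12, a stromal homing chemokine, had 200.04, 201 and 248 CPM at day 7 and 504, 496 and 622 CPM at day 1, a 2.499-fold fall.

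Cytokines of the interleukin-1 and interleukin-6 families fell with them. In the interleukin-1 family 7 of 12 members were lower and none higher (1 without day 1 replicate 3), and among the interleukin-6 and interleukin-20 families 8 of 18 were lower and 1, the cytokine Ctf1, was higher, a call lost without any 1 library but day 7 replicate 1 (adjusted p = 0.0504 to 0.0905). Il1b, an early alarm cytokine made mostly by myeloid cells, measured 4.69, 6.63 and 17.9 CPM at day 7 and 443, 236 and 232 CPM at day 1. Each day 1 library held more than the highest day 7 library, and Il1b fell by 4.96 ± 0.80 on the log2 scale (edgeR adjusted p = 0.0042), with a difference of -5.76 without day 7 replicate 3. Il6 was at 0.505, 0.376 and 0.871 CPM at day 7 and 34.5, 17.6 and 14.7 CPM at day 1, and fell by 5.23 ± 0.41 (edgeR adjusted p = 0.000188), one of the 12 smallest p-values among genes changed at least 2-fold. Socs3, the feedback inhibitor that such cytokines induce, had 28.5, 25.6 and 34.8 CPM at day 7 and 254, 204 and 157 CPM at day 1. The groups lay well apart, and the 6.93-fold fall had an edgeR adjusted p of 0.000147. Osm, a relative of Il6, fell 23.98-fold and its receptor Osmr 2.75-fold. Il33, an alarm cytokine of epithelia and stroma, had 66.3, 57.5 and 93.4 CPM at day 7 and 326, 299 and 319 CPM at day 1, and fell 4.34-fold, and its receptor Il1rl1 fell by 1.41 ± 0.41 on the log2 scale (edgeR adjusted p = 0.0485). The call of Il1rl1 was lost without any 1 library but day 7 replicate 3 (adjusted p = 0.0742 to 0.138), and without day 7 replicate 3 its difference was -2.03.

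Il19 and Il24, interleukin-20 family cytokines that act on keratinocytes, were scarce in both groups and nearly absent at day 7. Il19 had 0.0842, 0 and 0.139 CPM at day 7 and 4.41, 6.53 and 3.34 CPM at day 1, and fell by 5.88 ± 0.89 on the log2 scale (edgeR adjusted p = 0.00279), with a difference of -6.63 without day 7 replicate 3. Il24 had 0.0842, 0.215 and 0.238 CPM at day 7 and 6.98, 4.03 and 5.19 CPM at day 1, and fell by 4.90 ± 0.62. In both genes the lowest day 1 library was more than 10-fold above the highest day 7 library.

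Csf3, the granulocyte colony-stimulating factor that releases and sustains neutrophils, had the largest fall among the genes named by rule, with 0.02104, 0.0537 and 0.119 CPM in the day 7 libraries and 18.4, 7.09 and 5.895 CPM in the day 1 libraries. The day 7 values amount to a handful of counts, and Csf3 fell by 7.26 ± 1.02 on the log2 scale (edgeR adjusted p = 0.00189). Its difference was -6.59 without day 1 replicate 1 and -8.11 without day 7 replicate 3. Its receptor Csf3r, carried by neutrophils, had 13.6, 11.4 and 19.02 CPM at day 7 and 131, 102 and 134 CPM at day 1, an 8.35-fold fall with an edgeR adjusted p of 0.000188. Fgf23, better known as a bone hormone of phosphate balance, measured 0.105, 0.0805 and 0.238 CPM at day 7 and 27.9, 10.6 and 9.34 CPM at day 1, and fell by 6.76 ± 1.08, with a difference of -6.10 without day 1 replicate 1 and -7.38 without day 7 replicate 3. Of 23 growth factors of repair and their receptors, 6 were lower and 1, Pdgfa, was higher, a call lost without day 7 replicate 2 or day 1 replicates 1, 2 or 3 (adjusted p = 0.0609 to 0.0699). Without day 7 replicate 3 the list gave 3 higher calls. Fgf7, which fibroblasts make for keratinocytes, fell 2.58-fold. The macrophage growth factor Csf1 had 63.2, 46.2 and 34.1 CPM at day 7 and 166, 118 and 114 CPM at day 1, a 2.77-fold fall.

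Targets of NF-kappaB and immediate early genes were lower too. In the list of tumour necrosis factor and NF-kappaB feedback genes, 10 of 18 were lower, none was higher and the median was -0.75. Ptx3, a soluble pattern recognition protein, had 6.84, 8.62 and 9.403 CPM at day 7 and 118, 111 and 105 CPM at day 1, and fell 13.4-fold (edgeR adjusted p = 0.000188). Tnf itself was at 1.58, 1.74 and 2.02 CPM at day 7 and 10.9, 5.08 and 6.57 CPM at day 1, a 4.21-fold fall. Among 24 immediate early genes, which cells switch on within minutes of a stimulus, 12 were lower and none higher, and the count was 8 both without day 1 replicate 1 and without day 7 replicate 2. Fos, a subunit of the transcription factor AP-1, measured 24.1, 18.9 and 12.02 CPM at day 7 and 361, 271 and 259 CPM at day 1. That 16.2-fold fall (edgeR adjusted p = 0.00253) left no overlap. Fosb fell by 4.33 ± 0.81 on the log2 scale, whereas Jund, of the same AP-1 group, had a log2 difference of 0.39 ± 0.13 and did not pass. The phosphatase gene Dusp1 fell 5.24-fold and the mRNA-destabilising Zfp36 4.73-fold.

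Acute-phase and antimicrobial genes fell by wide margins, 9 of 16 of them, with none higher (1 without day 1 replicate 3). Lcn2, which withholds iron from bacteria, was at 2.06, 4.05 and 6.28 CPM at day 7 and 129.9, 113 and 112 CPM at day 1, and fell 28.6-fold (edgeR adjusted p = 0.00126). Hp, haptoglobin, measured 219.9, 316 and 269 CPM at day 7 and 1432, 1366 and 1611 CPM at day 1, a 5.47-fold fall. Saa3, an inducible serum amyloid A, had 10.5, 8.11 and 70.5 CPM at day 7 and 353, 589 and 686 CPM at day 1. Day 7 replicate 3 was again the highest of its group, and the log2 difference was -4.19 with it and -5.87 without it. Saa1 and Saa2, whose near-identical sequences leave the split of reads between them uncertain, had log2 differences of -5.61 ± 0.90 and -6.97 ± 1.35. Without day 7 replicate 3 the difference of Saa1 was -6.88. Saa2 had 0, 0 and 0.317 CPM at day 7 and 14.1, 23.04 and 6.37 CPM at day 1, so that its day 7 level rests on replicate 3 alone. Among enzymes and receptors of the eicosanoids, lipid mediators of inflammation, 5 of 17 were lower and 1 was higher (3 without day 7 replicate 3). Ptgs2, the inducible enzyme that starts prostaglandin synthesis, had 2.42, 2.82 and 5.35 CPM at day 7 and 95.5, 42.04 and 38.6 CPM at day 1, and fell 16.6-fold (edgeR adjusted p = 0.00308). The member that was higher was Hpgd, which inactivates prostaglandins, with 97.8, 104 and 116 CPM at day 7 and 24.1, 43.8 and 32.4 CPM at day 1, a 3.16-fold difference (edgeR adjusted p = 0.00344).

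**Figure D4:**
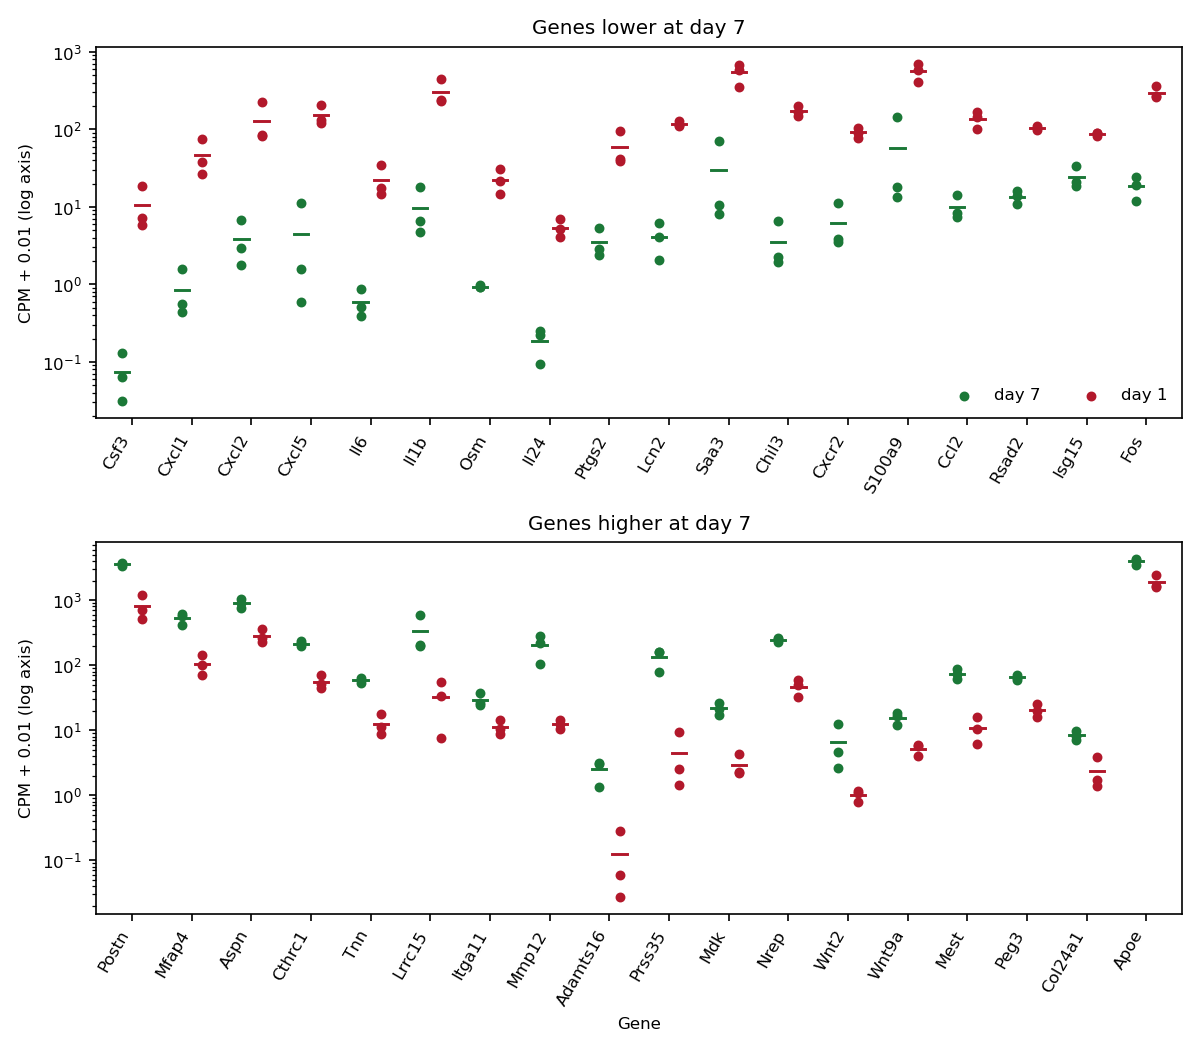
CPM plus 0.01 per library on a log axis, with bars at the means, for selected genes, with the 3 day 7 libraries left of the 3 day 1 libraries for each gene. The groups do not overlap for inflammatory genes such as Il1b (4.69 to 17.9 CPM at day 7 and 232 to 443 CPM at day 1) or for matrix genes such as Postn (3392 to 3682 CPM at day 7 and 517 to 1198 CPM at day 1).

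Neutrophil markers were lower as well. Of 20 markers tested, 14 were lower at day 7 and none higher, with a median of -2.97, and 11 to 14 were lower when single libraries were left out. Their summed level was 153, 169 and 388 CPM in the day 7 libraries and 1593, 1155 and 1615 CPM in the day 1 libraries. Cxcr2, the receptor through which neutrophils follow Cxcl1, measured 3.49, 3.84 and 11.1 CPM at day 7 and 106, 77.2 and 90.5 CPM at day 1, and fell 14.7-fold (edgeR adjusted p = 0.00108), the log2 difference being -3.88 and, without day 7 replicate 3, -4.64. Ly6g, a surface antigen specific to mouse neutrophils, had 0.02104, 0 and 0.0594 CPM at day 7 and 1.45, 1.52 and 1.397 CPM at day 1. Its day 7 values rest on at most a few counts per library, and Ly6g fell by 5.54 ± 1.07 on the log2 scale (edgeR adjusted p = 0.00856). Cd177, another surface protein of neutrophils, fell by 4.87 ± 0.59 and Trem1, an amplifier of myeloid inflammation, by 5.19 ± 0.73. Without day 7 replicate 3 the differences were -6.70 for Ly6g, -5.67 for Cd177 and -6.13 for Trem1.

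The calcium-binding proteins S100a8 and S100a9, abundant in neutrophils and also made by stressed keratinocytes, were uneven at day 7. S100a9 had 18.3, 13.4 and 143 CPM at day 7 and 577, 405 and 699 CPM at day 1, and fell by 3.27 ± 0.87 on the log2 scale (edgeR adjusted p = 0.035). Without day 7 replicate 3 the difference was -5.15 (adjusted p = 0.00164), and the call was lost without any 1 library but day 7 replicate 3 (adjusted p = 0.0645 to 0.087). S100a8, named here after its values were seen, had 11.7, 14.2 and 81.4 CPM at day 7 and 262, 191 and 308 CPM at day 1, with a difference of -2.83 (edgeR adjusted p = 0.035) that became -4.30 (adjusted p = 0.00295) without day 7 replicate 3 and was lost without any 1 library but day 7 replicate 3 (adjusted p = 0.0645 to 0.0965). Day 7 replicate 3 also had the high hair share, whose part in the S100 values was not tested. Ltf, lactoferrin, a granule gene that neutrophils make while maturing in the bone marrow, had 0.337, 0.215 and 0.297 CPM at day 7 and 0.282, 0.284 and 0.1995 CPM at day 1, and Ltf did not pass.

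Monocyte and macrophage genes split. Of 23, 8 were lower at day 7, 2 were higher and 13 did not pass, and the 8 stayed at 8 in each leave-one-out fit. Ly6c2, a marker of newly arrived monocytes, had 7.32, 5.88 and 11.6 CPM at day 7 and 64.9, 58.1 and 53.3 CPM at day 1, a 7.11-fold fall (edgeR adjusted p = 0.004). The lipopolysaccharide co-receptor Cd14 fell 5.73-fold, the scavenger receptor Msr1 5.15-fold and the high-affinity Fc receptor Fcgr1 4.84-fold. The general macrophage marker Adgre1 did not pass: it had 163, 143 and 104 CPM at day 7 and 137, 137 and 211 CPM at day 1, and the groups overlapped. Apoe, a lipid carrier that macrophages make along with other cells, was higher, with 4266, 4130.1 and 3533 CPM at day 7 and 1672, 1599 and 2432 CPM at day 1, a 2.09-fold difference (edgeR adjusted p = 0.00418). Gpnmb, a glycoprotein of lipid-handling macrophages, was the other, by 0.61 ± 0.18 on the log2 scale (edgeR adjusted p = 0.0436), and its call was lost without any 1 of the 6 libraries (adjusted p = 0.0675 to 0.132).

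Genes linked to alternative macrophage activation were lower in 5 of 11 cases and higher in none, also in each leave-one-out fit. Another 5 of the 11 had positive log2 differences without passing, and the median was -0.33. Chil3, a secreted chitinase-like protein, had 1.94, 2.23 and 6.53 CPM at day 7 and 200.1, 167 and 149 CPM at day 1, and fell 48.1-fold (edgeR adjusted p = 0.000902), the log2 difference being -5.59 and, without day 7 replicate 3, -6.38. Il4ra, the receptor chain for interleukin-4 and interleukin-13, fell 5.66-fold, with 68.3 to 86.1 CPM at day 7 and 360.2 to 473 CPM at day 1. Receptors of resident dermal macrophages were lower in 5 of 10 cases. The hyaluronan receptor Lyve1 had 29.4, 27.2 and 23.7 CPM at day 7 and 140.2, 131 and 96.1 CPM at day 1, a 4.57-fold fall (edgeR adjusted p = 0.000396), and the mannose receptor Mrc1, which both lists hold, fell 2.51-fold. The count of 5 was 2 with day 7 replicates 2 or 3 or day 1 replicates 1 or 3 left out.

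Other immune cells showed fewer differences. Of 24 markers of T and NK cells, 4 were higher and none lower, with a median of 0.81, and the summed level was 120, 120.3 and 84.0 CPM at day 7 and 73.5, 75.2 and 65.6 CPM at day 1. Trbc2, a constant segment of the T cell receptor, had 15.8, 20.4 and 17.5 CPM at day 7 and 10.5, 10.8 and 13.8 CPM at day 1, and was 1.53-fold higher (edgeR adjusted p = 0.02). The count of 4 was 0 with day 7 replicate 2 or day 1 replicates 1 or 2 left out and 2 with day 7 replicate 1 or day 1 replicate 3 left out, and the call of Trbc2 was lost without day 7 replicate 2 or day 1 replicates 1 or 2 (adjusted p = 0.0775 to 0.0928). None of 10 B and plasma cell markers passed by edgeR, 3 had an unadjusted p under 0.05, DESeq2 called 1 and limma 0. By edgeR the list gave 1 higher call with day 7 replicate 3 left out, 2 with day 1 replicate 3 left out and 2 without both libraries rich in hair keratins. The nearest to a call, Cd79b, had an edgeR adjusted p of 0.0542. Of 16 genes of antigen presentation, dendritic cells and Langerhans cells, 1 was higher, the integrin Itgax (CD11c), with 29.8, 23.8 and 11.5 CPM at day 7 and 10.3, 9.86 and 8.98 CPM at day 1. The count was 0 with day 7 replicates 1 or 2 or day 1 replicates 1, 2 or 3 left out and 6 with day 7 replicate 3 left out, and the adjusted p of Itgax without the other 5 libraries ran up to 0.0957. Among 12 mast cell markers 2 were lower. Hdc, the enzyme that makes histamine, fell 14.6-fold, with 5.64, 6.04 and 9.21 CPM at day 7 and 146, 79.9 and 79.6 CPM at day 1 (edgeR adjusted p = 0.00109), and Fcer1a by 1.47 ± 0.41 on the log2 scale. The mast cell proteases of the list, among them Cpa3 with a log2 difference of -0.40 ± 0.26 and Mcpt4 with -0.56 ± 0.21, did not pass. The call of Fcer1a was lost without day 7 replicates 1 or 2 or day 1 replicates 2 or 3 (adjusted p = 0.0942 to 0.124).

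Interferon-stimulated genes, which cells switch on in response to interferons and to viral or cellular nucleic acids, gave the largest number of calls in any list. Of 24, 20 were lower at day 7, the other 4 had log2 differences below 0 without passing, and the median was -1.42, beside 0.06 over all genes. With single libraries left out, 13 to 19 were lower, 13 of them without day 7 replicate 2. Rsad2, which blocks viral replication, had 15.8, 10.98 and 13.9 CPM in the day 7 libraries and 109.7, 105 and 98.6 CPM in the day 1 libraries. Libraries of a time lay close together, and the fall was 7.68-fold (edgeR adjusted p = 0.000188). Oas3, a sensor of double-stranded RNA, measured 8.61, 5.48 and 6.53 CPM at day 7 and 46.7, 43.3 and 41.8 CPM at day 1, a 6.38-fold fall. The ubiquitin-like modifier Isg15 had 20.6, 18.5 and 33.4 CPM at day 7 and 81.8, 90.5 and 90.4 CPM at day 1, a 3.62-fold fall, Mx1 fell 4.605-fold and Oasl1 5.87-fold. The transcription factor Irf7 fell by 1.41 ± 0.33 on the log2 scale, a call lost without day 7 replicate 2 or day 1 replicates 1, 2 or 3 (adjusted p = 0.0505 to 0.0827). GTPases that respond mainly to interferon-gamma did not pass by edgeR in any of 13 cases, with a median of -0.58. Of these 13, 6 had an unadjusted p under 0.05, DESeq2 called 2 lower and limma 0. By edgeR 2 were lower without day 7 replicate 1, 4 with only the 6 libraries in the fit and 6 without both libraries rich in hair keratins. The nearest to a call was Gbp5, with 10.8, 7.41 and 7.48 CPM at day 7 and 16.3, 15.8 and 18.05 CPM at day 1, a log2 difference of -0.96 ± 0.29 (edgeR adjusted p = 0.0513). The difference between the 2 interferon lists was not tested.

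Promoters of 3 of these genes are printed because the interferon-stimulated list gave the largest number of lower calls. They were also chosen because the letters of a response element of interferon were found in them. Capitals mark matches on either strand to TTTC repeated after any 2 bases, the core of the interferon-stimulated response element, in the 150 bases before the start in RefSeq (GRCm38.p6), 5′ to 3′ on the gene's strand.
Rsad2 (chr12:26456453-26456602, minus strand): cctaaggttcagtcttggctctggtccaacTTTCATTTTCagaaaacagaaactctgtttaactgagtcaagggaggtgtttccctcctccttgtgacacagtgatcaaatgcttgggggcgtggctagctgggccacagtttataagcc
Oas3 (chr5:120777660-120777809, minus strand): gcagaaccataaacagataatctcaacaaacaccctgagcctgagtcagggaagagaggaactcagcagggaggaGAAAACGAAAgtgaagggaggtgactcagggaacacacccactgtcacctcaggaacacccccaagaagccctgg
Isg15 (chr4:156200819-156200968, minus strand): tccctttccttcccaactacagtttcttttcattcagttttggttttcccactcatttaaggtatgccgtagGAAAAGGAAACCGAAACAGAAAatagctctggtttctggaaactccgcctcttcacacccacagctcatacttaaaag
The match begins 120 bases before the start in Rsad2 and 75 bases before it in Oas3. In Isg15 there are 3 matches that overlap each other, the first 78 bases before the start. Of 17 promoters of the list, 10 held the motif within 250 bases before to 50 after the start (58.8%), against 943 of all 27025 promoters (3.49%), and it was found in 72 of 962 promoters of genes called lower (7.48%) and in 22 of 686 of genes called higher (3.21%). The list is made of genes known for this response, so the match describes the list.

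**Figure D5:**
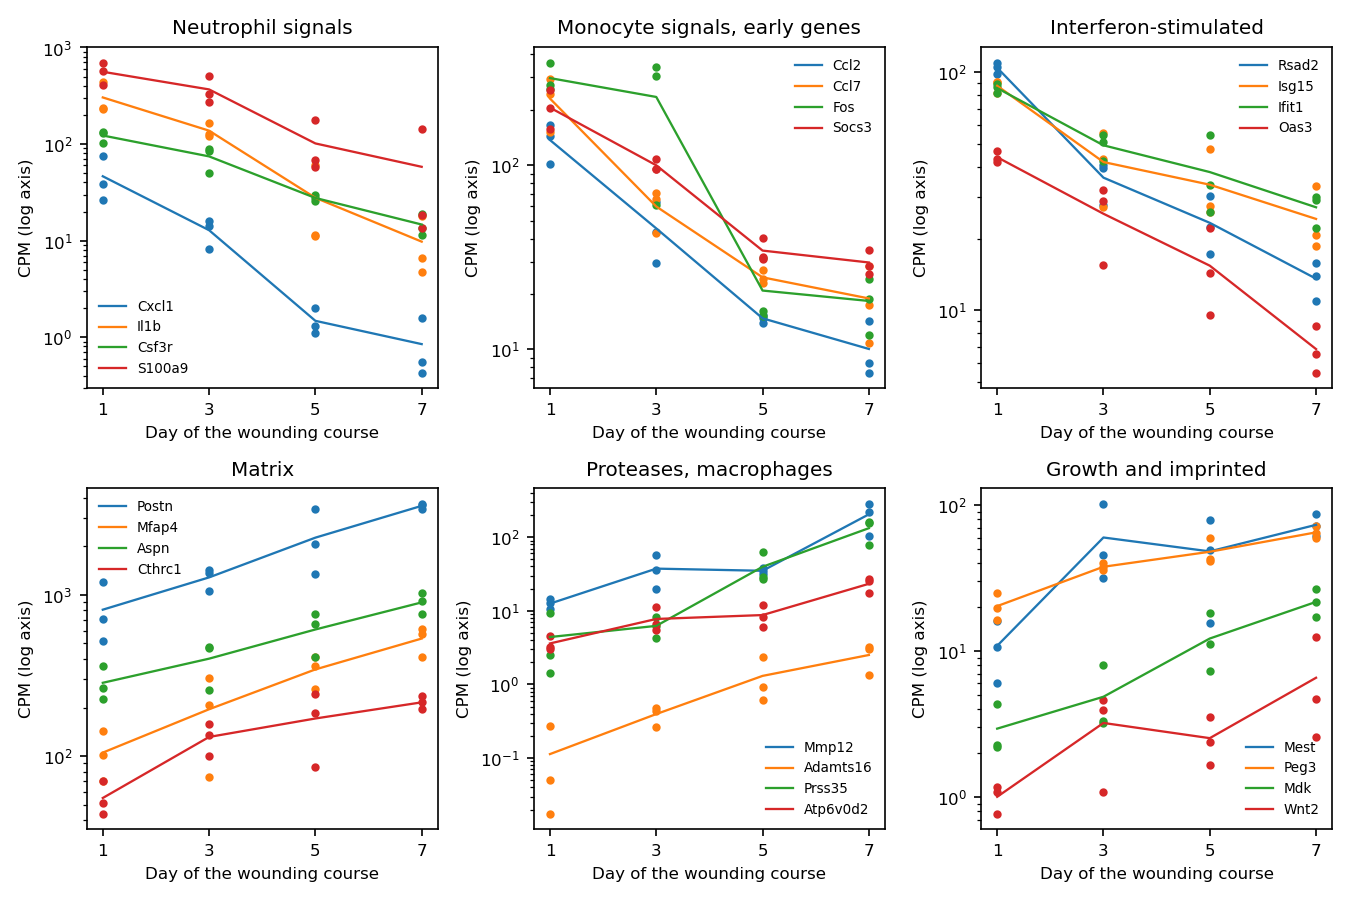
CPM at day 1, 3, 5 and 7 on a log axis for 24 genes in 6 groups, with 1 point per library and lines through the means of 3. Inflammatory and interferon-stimulated genes step down over the course (Socs3 means 205, 99.8, 34.4 and 29.6 CPM at day 1, 3, 5 and 7) while Postn steps up (808, 1282, 2261 and 3560.5 CPM).

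The times between lay mostly within the range of day 1 and day 7, as the plot of the course shows for genes taken from the named ones after their values were seen. Cxcl1 had means of 46.4, 12.8, 1.48 and 0.847 CPM at day 1, 3, 5 and 7, so most of its fall came by day 5. Fos differed in timing, with 297, 235, 20.9 and 18.3 CPM, and its day 3 libraries at 60.6, 304 and 339 CPM were uneven. Mest, an imprinted gene, stood at 10.9, 60.05, 48.2 and 73.4 CPM, with day 3 libraries at 45.6, 102.7 and 31.9 CPM. Mmp12 had 12.5, 37.4, 34.9 and 204 CPM, the largest step falling between day 5 and day 7. These steps are given as descriptions, without a test.

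Among genes of clotting, complement and vessels more were lower than higher. The counts are to be read beside the 5.49% of all genes called higher and the 7.46% called lower. In coagulation and plasminogen activation 6 of 16 were lower and 2 higher. The clotting inhibitor Tfpi2 was higher, with 20.7, 19.9 and 19.7 CPM at day 7 and 6.53, 5.95 and 7.55 CPM at day 1, a 3.02-fold difference (edgeR adjusted p = 0.0014). The count of lower calls was 3 with day 1 replicate 1 left out, and that of higher calls 1 with day 7 replicates 1 or 2 or day 1 replicates 1, 2 or 3 left out. In the complement list 5 of 20 were lower and none higher, led by factor B (Cfb, 2.76-fold) and the receptor C5ar1 (2.44-fold). Among 24 vessel genes 5 were lower and none higher. The adhesion molecules Sele and Selp, which endothelium displays to catch passing leukocytes, fell 5.01-fold and 4.53-fold, with Selp at 9.36, 6.44 and 5.998 CPM at day 7 and 41.2, 26.8 and 30.9 CPM at day 1. The endothelial marker Pecam1 did not pass, with a log2 difference of -0.49 ± 0.22, nor did Vegfa, with -0.17 ± 0.12. The count of 5 was 2 with day 7 replicate 2 or day 1 replicate 1 left out. Podoplanin (Pdpn), a marker of lymphatic vessels and also of activated fibroblasts, had 62.2, 57.2 and 61.2 CPM at day 7 and 295, 302 and 146 CPM at day 1, a 4.12-fold fall (edgeR adjusted p = 0.000834).

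Red blood cell genes were lower in 5 of 6 cases, all of them globin or haem synthesis genes. Hbb-bs, a beta globin, had 71.3, 76.4 and 151 CPM at day 7 and 398, 385 and 245 CPM at day 1 (edgeR adjusted p = 0.0241), and near-identical globin copies leave the split between genes uncertain. The count of 5 was 0 with day 1 replicate 1 left out and 1 with day 7 replicates 1 or 2 or day 1 replicate 2 left out, and the call of Hbb-bs was lost without day 7 replicates 1 or 2 or day 1 replicates 1 or 2 (adjusted p = 0.0703 to 0.0909). In the hypoxia and glycolysis list 11 of 25 were lower and 2 higher, with a median of -0.42. Slc16a3, the transporter that exports lactate, had 23.8, 23.3 and 23.2 CPM at day 7 and 104, 75.3 and 82.6 CPM at day 1, and fell 3.73-fold (edgeR adjusted p = 0.000191). The pyruvate kinase Pkm fell 1.97-fold and the glucose transporter Slc2a1 2.07-fold. The hypoxia-induced genes Egln3 and Ankrd37 were the 2 that were higher, by 0.55 and 0.90 on the log2 scale, calls lost for Egln3 without any 1 library but day 1 replicate 1 (adjusted p = 0.0523 to 0.118) and for Ankrd37 without day 7 replicate 2 or day 1 replicates 1 or 2 (adjusted p = 0.0515 to 0.0652). Lower calls numbered 6 with day 7 replicate 2 or day 1 replicate 1 left out and 7 with day 1 replicate 3 left out.

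In the epidermis, some genes of the migrating wound edge were lower and those of the barrier gave few calls. Of 24 stress keratins and wound-edge genes, 10 were lower and none higher, with 5 lower without day 1 replicate 1 and 6 without day 7 replicate 2. The other 14 did not pass, 8 of the 24 had positive log2 differences, and the median was -1.06. The epidermal growth factor receptor ligand Hbegf had 7.15, 5.503 and 9.96 CPM at day 7 and 37.2, 24.1 and 27.2 CPM at day 1, a 3.91-fold fall (edgeR adjusted p = 0.000768). Krt6a and Krt16, keratins of stressed epidermis, did not pass although their groups did not overlap: Krt6a, which has a close copy in Krt6b, stood at 514, 231 and 863 CPM at day 7 and 1232, 921 and 2057 CPM at day 1 (edgeR adjusted p = 0.0505, and 0.0134 without day 7 replicate 3), and Krt16 had an edgeR adjusted p of 0.0663. Of 14 basal and hemidesmosome genes 4 were lower and 1 higher. Integrin beta 4 (Itgb4), which anchors the basal layer, had 58.9, 51.1 and 40.7 CPM at day 7 and 130.2, 101 and 98.7 CPM at day 1, a 2.19-fold fall, and its partner Itga6 fell 1.89-fold. Their anchoring fibril Col7a1 went the other way, with 87.5, 89.5 and 59.7 CPM at day 7 and 26.01, 30.7 and 46.5 CPM at day 1 (edgeR adjusted p = 0.0245), a call lost without day 7 replicates 1 or 2 or day 1 replicates 1 or 2 (adjusted p = 0.061 to 0.103). The 4 lower calls of the basal list were 2 with day 7 replicate 2 or day 1 replicate 1 left out.

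Suprabasal and cornified envelope genes had a median of 0.84 over 33 members, but 1 passed, the protease Klk5, with 64.4, 57.2 and 46.8 CPM at day 7 and 28.3, 27.2 and 42.7 CPM at day 1 (edgeR adjusted p = 0.0272). That call was lost without day 7 replicates 1 or 2 or day 1 replicates 1 or 2 (adjusted p = 0.075 to 0.113), and the list gave 6 higher calls without day 1 replicate 3. Day 1 replicate 3 had more of several of these transcripts than the other day 1 libraries: Krt1, a keratin of differentiating layers, had 1633, 1556 and 737 CPM at day 7 and 399, 326 and 1752 CPM at day 1, and the groups overlapped. None of 18 barrier lipid and sebaceous genes passed by edgeR, DESeq2 or limma, and 3 had an unadjusted p under 0.05. By edgeR 1 was higher without day 7 replicate 3, and 2 were higher and 1 lower without both libraries rich in hair keratins.

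Hair genes were far more abundant in 1 day 7 library than in the other two. All 24 hair keratin and shaft genes tested had positive log2 differences, with a median of 3.86, and none passed by edgeR, DESeq2 or limma or had an unadjusted p under 0.05. Their summed level was 632, 525 and 30228 CPM in the day 7 libraries and 31.8, 816 and 1548 CPM in the day 1 libraries. Tchh, trichohyalin of the inner root sheath, had 175, 148 and 6174 CPM at day 7 and 12.8, 189.7 and 345 CPM at day 1, and a log2 difference of 3.57 ± 2.18 that became -0.19 without day 7 replicate 3. Pigment genes were highest in the same library. Of 9, none passed by edgeR or limma, 4 had an unadjusted p under 0.05 and DESeq2 called 1 higher. Their summed level was 102, 94.1 and 619 CPM at day 7 and 50.7, 90.8 and 73.2 CPM at day 1, and Mlana, a melanosome protein, had 5.87, 5.61 and 33.6 CPM at day 7 and 4.14, 2.77 and 2.21 CPM at day 1. Of 20 regulators of the follicle 1 passed, Tbx1, with 9.95, 17.4 and 39.3 CPM at day 7 and 4.003, 7.12 and 5.33 CPM at day 1 (edgeR adjusted p = 0.0431), a call lost without any 1 library but day 7 replicate 1 (adjusted p = 0.0765 to 0.156). The part of the hair content of day 7 replicate 3 in that call was not tested.

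Matrix genes were among those higher at day 7. Of 30 matricellular, elastic and small proteoglycan genes, 7 were higher, 4 lower and 19 did not pass, with a median of 0.38. Postn, periostin, a matrix protein of healing and scarring tissue, had 3608, 3682 and 3392 CPM at day 7 and 517, 711 and 1198 CPM at day 1. All 3 day 7 libraries lay far above the highest day 1 library, and the difference was 4.404-fold (edgeR adjusted p = 0.00444). Mfap4, a microfibril-associated protein, measured 618, 574 and 414 CPM at day 7 and 101, 144 and 70.2 CPM at day 1, and was 5.097-fold higher. Tnn, a tenascin, had 63.1, 59.1 and 53.5 CPM at day 7 and 8.89, 11.2 and 17.5 CPM at day 1, a 4.67-fold difference (edgeR adjusted p = 0.00359). Cthrc1, secreted by activated fibroblasts, was 3.92-fold higher, and asporin (Aspn), a small proteoglycan named here after its values were seen, 3.15-fold, with 911, 1024 and 756 CPM at day 7 and 226, 363 and 265 CPM at day 1. The same list held genes that fell. Thbs1, thrombospondin 1, which activates transforming growth factor beta and is released by platelets, had 71.02, 66.3 and 115 CPM at day 7 and 843, 499 and 458 CPM at day 1, a 7.12-fold fall (edgeR adjusted p = 0.00044). Cyr61, a matricellular protein of early repair, fell 4.3-fold. Lower calls numbered 2 with day 7 replicates 1 or 2 or day 1 replicate 1 left out.

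Among 24 collagen chains 11 were higher, 1 was lower and the median was 0.87. Higher calls numbered 0 with day 1 replicate 1 left out, 2 with day 7 replicate 2 left out, 3 with day 7 replicate 1 left out and 4 with day 1 replicate 2 left out. The lower chain was Col4a2 of basement membranes, whose call was lost without any 1 library but day 7 replicate 1 (adjusted p = 0.0647 to 0.133). The fibril chain Col5a1 had 989, 784 and 604 CPM at day 7 and 303, 404 and 391 CPM at day 1, and was 2.16-fold higher (edgeR adjusted p = 0.0235). Col27a1, a chain known from cartilage, had 27.5, 24.1 and 25.5 CPM at day 7 and 11.5, 11.9 and 13.04 CPM at day 1, a 2.12-fold difference (edgeR adjusted p = 0.0104, and 0.0507 without day 1 replicate 1). The call of Col5a1 was lost without any 1 library but day 7 replicate 3 (adjusted p = 0.0561 to 0.102). The main dermal collagens did not pass. Col1a1 measured 13943, 12503 and 6272 CPM at day 7 and 7169.8, 11559 and 4396 CPM at day 1, and Col3a1 22689, 20977 and 11475 CPM at day 7 and 10218, 17715 and 10244 CPM at day 1. In both, the groups overlapped, and day 7 replicate 3 was the lowest of its group. Of 21 genes that process and cross-link collagen 2 were higher, a count of 0 with day 7 replicate 1 or day 1 replicate 1 left out and 1 with day 7 replicate 2 or day 1 replicate 2 left out, and 1 lower, the lysyl hydroxylase Plod3, at 63.8, 60.1 and 60.2 CPM at day 7 and 103, 101 and 94.3 CPM at day 1 (edgeR adjusted p = 0.006).

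Matrix proteases and their inhibitors differed in both directions, with 5 of 25 higher and 7 lower. Mmp12, the macrophage elastase, had 222, 286 and 105 CPM at day 7 and 12.7, 14.4 and 10.5 CPM at day 1. The lowest day 7 library was far above the highest day 1 library, and the difference was 16.3-fold (edgeR adjusted p = 0.000562). Adamts16, a secreted metalloprotease, was scarce, with 3.18, 3.01 and 1.35 CPM at day 7 and 0.0176, 0.0501 and 0.272 CPM at day 1, and higher by 4.45 ± 0.82 on the log2 scale (edgeR adjusted p = 0.00707), or by 6.10 without day 1 replicate 3. Mmp8 and Mmp9, collagenase and gelatinase of neutrophils among other cells, fell 9.19-fold and 4.29-fold, and Mmp9 had 18.2, 14.3 and 20.9 CPM at day 7 and 93.9, 56.98 and 77.8 CPM at day 1. The inhibitor Timp1 had 34.99, 30.8 and 90.5 CPM at day 7 and 179, 174 and 171 CPM at day 1, and its difference of -1.74 (edgeR adjusted p = 0.0199) became -2.42 (adjusted p = 0.00234) without day 7 replicate 3. The call of Timp1 was lost without day 7 replicates 1 or 2 or day 1 replicates 1 or 2 (adjusted p = 0.0525 to 0.0696). Higher calls of the list numbered 3 with day 7 replicate 2 or day 1 replicate 1 left out, and lower calls 4 with day 7 replicate 2 or day 1 replicate 1 left out. Of 11 genes of hyaluronan, the space-filling sugar of early wound matrix, 4 were lower and none higher. The synthase Has3 fell 5.11-fold and the receptor Cd44 1.74-fold, with Cd44 at 164, 117 and 161 CPM at day 7 and 276, 246 and 249 CPM at day 1. The log2 difference of Has3 was -2.35, and -3.24 without day 7 replicate 3.

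Fibroblast genes did not move as a block. Pdgfra, the receptor that marks most dermal fibroblasts, had 148, 130.1 and 107 CPM at day 7 and 465, 477 and 315 CPM at day 1, a 3.27-fold fall (edgeR adjusted p = 0.00102). The surface antigen Ly6a fell 2.23-fold and the peptidase Dpp4 was higher, these being the calls among 17 genes of resting fibroblasts. Of the 17, 12 had positive and 5 negative log2 differences, and the median was 0.65 beside 0.06 over all genes. Without day 7 replicate 3 there were 7 higher and 2 lower. The call of Dpp4 was lost without any 1 library but day 7 replicate 3 (adjusted p = 0.0818 to 0.119). Of 17 myofibroblast and contractile genes 4 were higher, none was lower and 13 did not pass. The median was 0.02 beside 0.06 over all genes, with 9 positive and 8 negative log2 differences. All contractile genes of the list were among the 13. The 4 that were higher were Cdh11, Fap, Itga11 and Lrrc15. Acta2, the smooth muscle actin of myofibroblasts and vessel walls, was not among them, with 136, 121 and 189 CPM at day 7 and 147, 159.9 and 156 CPM at day 1 and an overlap of the groups. The adhesion molecule Cdh11 had 149, 142 and 126 CPM at day 7 and 58.5, 69.6 and 74.5 CPM at day 1, and was 2.06-fold higher (edgeR adjusted p = 0.0105). Fap, a peptidase of activated fibroblasts, was 1.81-fold higher, with 41.8, 38.3 and 40.7 CPM at day 7 and 20.7, 19.5 and 26.6 CPM at day 1. Lrrc15, a membrane protein of activated fibroblasts, was the largest at 10.4-fold, but uneven: it had 207, 198 and 590.1 CPM at day 7 and 7.601, 33.3 and 54.9 CPM at day 1 (edgeR adjusted p = 0.0223). Its call was lost without day 7 replicate 3 or day 1 replicates 1 or 2 (adjusted p = 0.05003 to 0.0759), and its log2 difference of 3.38 became 2.65 with day 7 replicate 3 left out and 4.02 with day 1 replicate 3 left out. The count of 4 was 0 with day 1 replicate 1 left out and 2 with day 1 replicate 2 left out, and both Cdh11 and Fap had an adjusted p of 0.0541 without day 1 replicate 1.

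Signals that guide repair were mixed. Their counts are to be read beside the 5.49% of all genes called higher and the 7.46% called lower. Of 18 genes of transforming growth factor beta and activin signalling 2 were higher (Tgfb3 and Fstl3) and 2 lower (Inhba and Tgfbi). Tgfb3 had 67.9, 63.5 and 42.6 CPM at day 7 and 27.04, 29.4 and 34.1 CPM at day 1 (edgeR adjusted p = 0.0319), and its call was lost without any 1 library but day 7 replicate 3 (adjusted p = 0.0565 to 0.124). The count of higher calls was 0 with day 7 replicates 1 or 2 or day 1 replicates 1, 2 or 3 left out, and that of lower calls 0 with day 1 replicate 1 left out and 1 with day 7 replicate 2 or day 1 replicates 2 or 3 left out. Among 13 Wnt ligands, secreted signals of growth and patterning, 2 were higher and 1, Wnt16, was lower, a call lost without any 1 library but day 7 replicate 1 (adjusted p = 0.0516 to 0.112). Wnt9a had 16.4, 18.1 and 12.1 CPM at day 7 and 5.87, 3.99 and 5.75 CPM at day 1, a 2.98-fold difference (edgeR adjusted p = 0.00477). Wnt2 was 6.54-fold higher but uneven, with 12.4, 4.67 and 2.57 CPM at day 7 and 1.08, 0.769 and 1.16 CPM at day 1 (edgeR adjusted p = 0.0225). The call of Wnt2 was lost without day 7 replicate 1 or day 1 replicates 1, 2 or 3 (adjusted p = 0.0585 to 0.0844), and its log2 difference of 2.71 was 1.85 without day 7 replicate 1. Of 17 Wnt antagonists and feedback targets 2 were higher and none lower, the secreted Wnt inhibitor relative Dkk3, a call lost without any 1 library but day 7 replicate 3 (adjusted p = 0.0819 to 0.152), and Rspo3, an enhancer of Wnt signals, with 5.72, 5.21 and 5.05 CPM at day 7 and 2.17, 2.81 and 1.85 CPM at day 1 (edgeR adjusted p = 0.0143), a call lost without day 1 replicates 1 or 3 (adjusted p = 0.0518 to 0.065). Of 15 Schwann cell and nerve genes 2 were higher and none lower (1 without day 7 replicate 1), among them the adhesion molecule Ncam1, with 23.5, 22.2 and 20.3 CPM at day 7 and 7.02, 6.98 and 10.6 CPM at day 1 (edgeR adjusted p = 0.0269), a call lost without day 7 replicates 1 or 2 or day 1 replicates 1 or 2 (adjusted p = 0.0599 to 0.107). The pericyte gene Rgs5 had 322, 337 and 277 CPM at day 7 and 159.9, 163 and 198 CPM at day 1, a 1.79-fold difference (edgeR adjusted p = 0.0369), and its call was lost without any 1 library but day 7 replicate 3 (adjusted p = 0.0582 to 0.135).

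Imprinted growth genes, which are expressed from 1 parental copy and are most active before birth, were higher in 4 of 8 cases and lower in none. Peg3 had 64.4, 71.7 and 59.4 CPM at day 7 and 25.04, 16.2 and 19.7 CPM at day 1. The groups lay well apart, and the difference was 3.204-fold (edgeR adjusted p = 0.000524). Plagl1, a zinc finger transcription factor, measured 71.6, 53.9 and 48.6 CPM at day 7 and 16.6, 15.3 and 23.3 CPM at day 1, a 3.15-fold difference. The cell cycle inhibitor Cdkn1c was at 56.4, 53.5 and 42.1 CPM at day 7 and 23.6, 17.5 and 16.98 CPM at day 1, 2.62-fold higher (edgeR adjusted p = 0.00353). Mest was the largest at 6.76-fold, with 72.3, 86.4 and 61.4 CPM at day 7 and 10.6, 6.05 and 15.9 CPM at day 1 (edgeR adjusted p = 0.0173), a call lost without day 7 replicate 2 or day 1 replicates 1 or 2 (adjusted p = 0.0514 to 0.0728). In the 6 leave-one-out fits the list gave 3 to 5 higher calls.

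The 12 largest increases among named genes that averaged at least 5 CPM at day 7 and whose groups did not overlap held Mmp12, Lrrc15, Mest and Wnt2, given above, and 8 others. Prss35, a secreted member of the serine protease family, had the largest, with 161, 157 and 78.95 CPM at day 7 and 1.43, 2.54 and 9.23 CPM at day 1, a 30.1-fold difference (edgeR adjusted p = 0.00262), and its log2 difference of 4.91 was 6.05 without day 1 replicate 3. Mdk, the heparin-binding growth factor midkine, had 26.6, 21.5 and 17.1 CPM at day 7 and 2.19, 2.27 and 4.35 CPM at day 1, and was 7.396-fold higher. Prnd, a relative of the prion protein, measured 16.6, 12 and 16.5 CPM at day 7 and 2.42, 1.57 and 2.68 CPM at day 1, a 6.76-fold difference (edgeR adjusted p = 0.000768), with a mean of 13.2 CPM at day 3. Atp6v0d2, a proton pump subunit of macrophages and osteoclasts, had 25.3, 27.2 and 17.3 CPM at day 7 and 3.25, 2.99 and 4.57 CPM at day 1, and was 6.45-fold higher. The integrin-binding matrix protein Edil3 had 11.4, 11.9 and 11.6 CPM at day 7 and 1.85, 1.79 and 2.87 CPM at day 1, a 5.35-fold difference. Nrep, a small intracellular protein first described in neurons, combined size and evenness, with 252, 259 and 225 CPM at day 7 and 32.8, 48.8 and 59.01 CPM at day 1, a 5.24-fold difference and an edgeR adjusted p of 0.000188, the only increase among the 12 smallest p-values at 2-fold or more. Spink7, Islr2 and Skint7 were also among the largest increases, but their calls were lost when single libraries were left out: Spink7, a protease inhibitor, at 8.796, 7.704 and 5.03 CPM at day 7 and 0.353, 0.0167 and 0.907 CPM at day 1, without day 7 replicate 2 or day 1 replicate 1 (adjusted p = 0.0551 to 0.0912), and Islr2, at 19.4, 5.07 and 1.48 CPM at day 7 and 0.917, 0.685 and 0.853 CPM at day 1, without day 1 replicates 1 or 2 (adjusted p = 0.0567 to 0.0579). Islr2 was uneven at day 7, and its log2 difference of 3.40 ran from 1.99 to 3.9 with single libraries left out. Skint7, an epidermal membrane protein, had 10.9, 13.2 and 2.34 CPM at day 7 and 1.53, 2.22 and 1.05 CPM at day 1, and its call was lost without any 1 library but day 7 replicate 3 (adjusted p = 0.0703 to 0.118). Close relatives of Skint7 leave its share of the reads uncertain.

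Other genes with the smallest p-values fell as well. Eps8, which caps actin filaments and relays growth factor signals, had 42.8, 42.03 and 39.6 CPM at day 7 and 96.5, 104 and 91.4 CPM at day 1, a 2.34-fold fall with an edgeR adjusted p of 0.000147. The sorting nexin Snx2, which returns receptors from endosomes, had 161, 148 and 165 CPM at day 7 and 386, 438 and 393 CPM at day 1, and fell 2.57-fold. Libraries within a time differed little for both. The metal reductase Steap4 fell 3.36-fold, the myeloid surface enzyme Bst1 4.06-fold, the cytokine Tnfsf14 6.51-fold and the myeloid receptor Tarm1 10.9-fold, each called in all 6 leave-one-out fits.

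Several groups gave few or no calls, to be read beside the 12.9% of all genes. Of 32 cell cycle and replication genes 2 were lower, the replication licensing factors Mcm3 and Mcm4, and the count was 0 with day 7 replicates 1 or 2 or day 1 replicates 2 or 3 left out and 6 with day 7 replicate 3 left out. Mki67, a marker of cycling cells, had 75.9, 65.5 and 162 CPM at day 7 and 59.9, 100.5 and 146 CPM at day 1, and the groups overlapped. None of 13 mitochondrially encoded genes passed by edgeR or limma, DESeq2 called 3 higher, edgeR 1 higher without day 7 replicate 1, and 6 had an unadjusted p under 0.05. All 13 had positive log2 differences, with a median of 0.34 beside 0.06 over all genes. The mitochondrial share was 8.09%, 9.44% and 9.26% of the counts at day 7 and 7.37%, 6.98% and 7.53% at day 1. Of 25 nuclear genes of mitochondrial energy metabolism 1 was lower, a count of 0 with day 7 replicates 1, 2 or 3 or day 1 replicates 1 or 2 left out. None of 14 adipocyte genes passed by edgeR or limma, DESeq2 called 1 lower, edgeR called 1 lower without day 7 replicates 2 or 3 and 1 higher without day 1 replicate 3, 3 had an unadjusted p under 0.05, and the summed level was 2945, 3317 and 2211 CPM at day 7 and 2855, 2737 and 4532 CPM at day 1. Skeletal muscle genes were present in spite of the removal of muscle, at 8364, 8992 and 3470 CPM at day 7 and 11162, 7773 and 7757 CPM at day 1, and 1 of 15, the oxygen carrier Mb, was higher, a call lost without any 1 library but day 7 replicate 3 (adjusted p = 0.0716 to 0.158).

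Genes of the clock, of the endoplasmic reticulum, of cholesterol and of chromatin are to be read beside the 5.49% of all genes called higher and the 7.46% called lower. Clock genes had 3 of 17 higher and 2 lower, with Arntl at 34.7, 29.6 and 32.7 CPM at day 7 and 19.6, 20.1 and 18.3 CPM at day 1 (edgeR adjusted p = 0.00511), and the counts were 1 with day 7 replicate 2 or day 1 replicate 1 left out for higher calls and 1 with day 7 replicate 1 or day 1 replicates 1, 2 or 3 left out for lower calls. The labels do not give the hour of sampling. Of 17 chaperones and stress genes of the endoplasmic reticulum 6 were lower, none by as much as 2-fold, and Calr, calreticulin, had 511, 439.7 and 577 CPM at day 7 and 950.2, 857 and 770.02 CPM at day 1. In cholesterol synthesis and uptake 3 of 17 were lower, a count of 1 with day 7 replicates 1 or 2 or day 1 replicates 1 or 2 left out. Polycomb and histone-modifying genes had 4 of 19 higher, all by less than 2-fold, a count of 2 with day 1 replicates 1 or 2 left out, with Rnf2 the steadiest at 63.7, 66.9 and 65.4 CPM at day 7 and 53.2, 49.1 and 47.5 CPM at day 1 (edgeR adjusted p = 0.0075).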

How the data were processed

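RNA of wounded mouse skin was sequenced in 15 libraries, 3 at each of day 0, 1, 3, 5 and 7. The authors deposited estimated counts per gene, a file for each library. Per the submitters' processing notes, kallisto 0.43 was used. Its index, the genome build, the annotation and the strand setting were not given in the sources used here. The estimated counts were rounded to whole numbers. Of 30307 rows, 26 held dates in place of gene symbols and were left out (0.155% to 0.179% of the counts of each library), which left 30281 genes.

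Day 7 was compared with day 1 by edgeR's quasi-likelihood test (edgeR 4.0.16, limma 3.58.1, R 4.3.3). The fit had 1 term per time over the 12 libraries of day 1, 3, 5 and 7, which share one estimate of the spread, with TMM scaling, filterByExpr at a minimum count of 10, and Benjamini-Hochberg adjustment over all 16983 genes tested. Day 0 libraries were left out of the fit. Calls needed an adjusted p under 0.05. SE is the log2 difference divided by the square root of the F statistic. Sequencing depth was 38062562 to 59637266 counts in the 6 libraries, so 1 count is near 0.02 CPM, and the common biological coefficient of variation of 31.1% describes the spread between libraries of a time. Near-identical genes can share reads in such counts, and reads of antisense genes may not be separable. The statistics were tested on simulated data.

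Genes named are the 12 highest and the 12 lowest called log2 differences (at least 2-fold, a mean of at least 5 CPM in the higher group, an ordinary symbol and no overlap of the groups), up to 6 called members per list with the largest change (otherwise 3 with the smallest p), and the 12 smallest p-values at 2-fold or more. Adgre1, Apoe, Aspn, Gpnmb, S100a8, Krt1, Krt6a, Krt16, Acta2, Col1a1, Col3a1, Col4a2, Ccr2, Cpa3, Mcpt4, Ctf1, Egln3, Irf7, Jund, Ltf, Mki67, Pdgfa, Pecam1, Vegfa and the genes of the closing observations were named after their values were seen. Pgam1-ps2 and Stfa2l1 in those observations are exceptions, named by the rule. Some genes that the rule names are not reported here. The comparison, gene lists and tests were chosen with earlier results of these data known. Promoters are from RefSeq (GRCm38.p6). Alternatives were each library left out in turn, all 15 or only the 6 libraries in the fit, DESeq2 size factors or upper-quartile scaling, no filter, DESeq2 1.42.0, limma voom, a replicate block and, chosen after seeing the data, both libraries rich in hair keratins left out.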

Additional observations from a re-analysis of the deposited data

How the results depend on the processing

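Of the 2199 genes called, none had the other sign under any of the 15 alternatives, but how many were called depended on the libraries and the tool. With single libraries left out, 967 to 2275 genes were called, 249 to 976 higher and 718 to 1299 lower, the low ends without day 1 replicate 1 and the high ends without day 7 replicate 3. With only the 6 libraries of day 7 and day 1, 1216 genes were called (378 higher, 838 lower). DESeq2's Wald test called 3605 (1634 higher, 1971 lower), and leaving out both libraries rich in hair keratins gave 3715 (1675 higher, 2040 lower). Other fits, with all 15 libraries, DESeq2 size factors, upper-quartile scaling, no filter or limma voom, called 1825 to 2458, and the split under upper-quartile scaling was 1137 higher and 1134 lower. The replicate block called 1634, 600 of them higher. The deviations of same-numbered libraries of day 7 and day 1 correlated with r of 0.496, -0.0641 and 0.519 for numbers 1, 2 and 3. Those of day 7 replicate 2 and day 1 replicate 1, which differ in number, correlated with r of 0.503. The numbers were not taken to pair samples. Of 249 named genes called, 152 were called in all 6 fits that left out 1 library. Uncalled differences changed sign for Krt84 (-0.47 to 4.57 with single libraries left out, -0.46 without both libraries rich in hair keratins), Tchh (-0.19 to 4.42, and -0.18), Acta2 (-0.27 to 0.073) and Mki67 (-0.54 to 0.33). The cause of these changes was not tested.

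The comparison rests on few libraries. Labels name no animals, 1 day 7 library of 3 was rich in hair, and each group of 3 gives little hold on the spread. Depth limits genes near 1 count per library, such as Csf3 and Ly6g at day 7, whose fold change depends on the prior count.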

Other observations

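Several gene families outside the lists above lay mostly or wholly on the lower side. They were picked after their values were seen, so their counts are given as values without a test, beside the 7.46% of all genes called lower. All 8 Schlafen genes tested were called lower at day 7, with a median log2 difference of -1.34. Slfn4, a Schlafen gene of myeloid cells that interferon induces, had 10.4, 5.99 and 20.4 CPM in the day 7 libraries and 327, 223 and 189 CPM in the day 1 libraries, a 20.1-fold difference (edgeR adjusted p = 0.00126), with a log2 difference of -4.33 that was -4.92 without day 7 replicate 3. Slfn1 had 8.78, 6.55 and 9.32 CPM at day 7 and 54.4, 55.98 and 55.4 CPM at day 1, and Slfn9, the smallest difference, 23.5, 19 and 25.8 CPM at day 7 and 33.5, 44.7 and 49.97 CPM at day 1. Of 12 Ms4a genes, membrane proteins many of which macrophages carry, 7 were lower and none higher, with Ms4a4c at 15.7, 11.1 and 22.1 CPM at day 7 and 99.1, 111 and 131 CPM at day 1 and Ms4a6d at 51.3, 40.9 and 69.98 CPM at day 7 and 223, 258 and 255 CPM at day 1. In the Ifi200 family of DNA sensors 9 of 14 were lower and all 14 had negative differences, among them Ifi204 at 112, 78.9 and 95.7 CPM at day 7 and 285, 325 and 272 CPM at day 1, and close copies within that family leave the split of reads uncertain. Of 6 Ifitm genes 4 were lower, with Ifitm1, a membrane barrier to viral entry, at 7.997, 9.69 and 15.9 CPM at day 7 and 72.9, 72.6 and 98.4 CPM at day 1. Toll-like receptors were lower in 6 of 12 cases, Tlr1 having 12.7, 9.42 and 10.2 CPM at day 7 and 26.6, 30.05 and 35.4 CPM at day 1, and Cd300 receptors in 5 of 12, Cd300lf having 1.999, 1.396 and 3.702 CPM at day 7 and 28.1, 23.3 and 27.5 CPM at day 1.

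Of 15 genes of the skeletal muscle list none was called lower, although 13 had negative log2 differences, with a median of -0.36. Of 12 muscle stress genes, picked after their values were seen, 11 were called lower. Because they were picked in that way, their count cannot be weighed against that of the list. Ankrd2, a stretch-induced protein of muscle fibres, had 1.87, 2.71 and 2.57 CPM at day 7 and 75.7, 41.2 and 23.6 CPM at day 1, a 19.6-fold difference (edgeR adjusted p = 0.00345), and Mustn1 had 24.5, 18.5 and 15.4 CPM at day 7 and 181, 60.6 and 82.3 CPM at day 1. Day 1 replicate 1 was the highest library for both. The muscle list itself summed to 8364, 8992 and 3470 CPM at day 7 and 11162, 7773 and 7757 CPM at day 1, and the part of muscle content in these values was not tested.

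Prg4, the lubricating proteoglycan of joints, was outside every list and among the larger falls, with 9.11, 5.99 and 24.5 CPM at day 7 and 563, 363 and 305 CPM at day 1 (edgeR adjusted p = 0.00101) and means of 410.3, 157, 67.96 and 13.2 CPM at day 1, 3, 5 and 7. Pgam1-ps2, listed as a pseudogene of a glycolytic enzyme, had 0.905, 0 and 0 CPM at day 7 and 14, 20.3 and 15.5 CPM at day 1, and reads shared with Pgam1 leave its level uncertain. Stfa2l1, of a cluster of near-identical stefin A genes, had 0.105, 0 and 1.05 CPM at day 7 and 19.5, 6.82 and 16.3 CPM at day 1, and its call was lost without day 7 replicates 1 or 2 or day 1 replicate 1 (adjusted p = 0.0529 to 0.0612).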
